A study of Mus musculus with 4 samples.

Results

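Interferon-stimulated genes that act outside the OAS, Ifit, guanylate-binding and MHC families were examined as a set of 43 genes, chosen by symbol from a list, among the 55416 genes in the files. All 43 symbols occurred in the annotation used by the authors, each with a single gene. The tested libraries came from C2C12 cells, a mouse myoblast line, by their cell line label (both K97E titles spell the line C1C12), given DNA for K97E lamin A, a mutant of this nuclear lamina protein, and the series title links the mutation to DCM, dilated cardiomyopathy (2 libraries, K97E 1 and K97E 2). They were set against C2C12 cells given DNA for wild-type lamin A in the same way (2 libraries, WT 1 and WT 2). Cells of both groups received 3 µg of DNA with a lipid reagent and were harvested after 24 h, so transfection is common to every library, and untransfected cells are not analysed here. The labels do not name the promoter, the species of the transfected lamin A or the share of cells that took it up. The mouse gene Lmna differed by 0.10 (SE 0.10, limma adjusted p = 0.965), K97E minus WT on the log2 scale, which checks no label since both groups received a lamin A. Replicates are called biological in the labels, which do not say whether they came from separate cultures, and the p-values cover no more than the spread among the 4 libraries.

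Type I interferons bind a receptor whose kinases JAK1 and TYK2 start a signal that ends in the factor ISGF3, of which IRF9 is the DNA-binding part. ISGF3 binds the interferon-stimulated response element in the promoters of many target genes, and the target genes include enzymes that attach the ubiquitin-like protein ISG15, GTPases and nucleases that block viruses, ADP-ribosyltransferases, TRIM ubiquitin ligases and parts of PML nuclear bodies.

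The promoters of members were searched for the core of that element, GAAA and again GAAA with any 2 bases between, on both strands (TTTC on either side of 2 bases on the other strand), where overlapping copies were counted separately. RefSeq windows of the build GRCm38.p6, from 250 bases before to 50 after a transcript start, were matched by symbol for 33 of the 43 members. Of these, 10 held at least 1 copy (30.3%), against 1079 of 27025 genes with a window (3.99%). These were Isg15, Bst2, Ddx60, Lgals9, Parp11, Rsad2, Shisa5, Trim21, Trim30a and Trim34a. The 150 bases before the start are shown for 4 members whose values recur below, 5′ to 3′ on the strand of the gene, with the core in capitals.
Isg15, chr4:156200819-156200968, minus strand: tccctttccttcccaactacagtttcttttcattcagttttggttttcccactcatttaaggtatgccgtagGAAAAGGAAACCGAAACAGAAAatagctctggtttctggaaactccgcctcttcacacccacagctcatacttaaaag
Bst2, chr8:71537473-71537622, minus strand: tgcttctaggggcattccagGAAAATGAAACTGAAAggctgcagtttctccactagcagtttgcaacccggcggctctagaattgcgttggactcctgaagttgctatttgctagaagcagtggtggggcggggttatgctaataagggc
Ddx60, chr8:61927937-61928086, plus strand: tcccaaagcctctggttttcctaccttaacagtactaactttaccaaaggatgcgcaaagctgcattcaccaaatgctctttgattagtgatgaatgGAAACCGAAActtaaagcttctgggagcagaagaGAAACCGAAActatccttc
Rsad2, chr12:26456453-26456602, minus strand: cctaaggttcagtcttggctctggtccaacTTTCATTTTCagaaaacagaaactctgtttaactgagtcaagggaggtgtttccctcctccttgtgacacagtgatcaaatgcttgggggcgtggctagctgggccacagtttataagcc
In Isg15 the core occurs in 3 overlapping copies that begin 78, 72 and 66 bases before the start. Bst2 has overlapping copies that begin 130 and 124 bases before it, and Ddx60 has separate copies at 53 and 19 bases. A match describes the letters in the window, and no match says only that they are not there. No window was matched for Mx1, Mx2, Usp18, Parp9, Parp10, Parp14, Rtp4, Ifi27, Trim14 and Tor3a.

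The coverage in the files corresponded to between 89600000 and 115600000 reads of 100 bases per library, and 16304 genes with a mean of at least 0.5 TPM (transcripts per 1000000, which corrects for length) were tested. Of the libraries, WT 1 stood apart most often. It was the highest library for 33.0% of tested genes and the lowest for 33.2%, against 21.1% to 23.6% for each of the others, and 7.37% of its TPM came from the mitochondrial genome, against 5.29% to 5.55% in the others. Of 9 listed myoblast markers, 7 were tested, among them Des (384 to 467 TPM), Myf5 (41.5 to 47.8 TPM) and Myod1 (4.56 to 4.96 TPM), while Myog was at 0 in 3 libraries and 0.096 TPM in WT 2, and Pax7 was not analysed here. The pan-leukocyte gene Ptprc stayed at or under 0.05 TPM and the macrophage gene Adgre1 was listed at 0. Of 10 listed leukocyte markers 3 were tested, Cd68 (3.17 to 5.48 TPM), Cd163 (1.14 to 2.82 TPM) and Lyz2 (0.82 to 1.55 TPM). The summed level of the 10 leukocyte markers was 9.19 and 6.03 TPM in K97E libraries, against 6.03 and 9.55 TPM in WT libraries. In bulk RNA, fewer cells making a transcript and less transcript per cell cannot be told apart.

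All 43 members passed the filter, and most were among the abundant transcripts of these cells in both groups. Of the 43, 33 had at least 100 TPM in every library, and 33 stood at or above the 90th percentile of tested genes. The median member had a mean of 248 TPM, against 15.1 TPM for the median tested gene. Together the members held 1.53% and 1.59% of all TPM in K97E libraries, against 1.67% and 1.56% in WT libraries. Levels ran from Lgals3bp, a secreted glycoprotein that binds galectins, at 2141 and 2231 TPM in K97E libraries and 2527 and 2154 TPM in WT libraries, down to Epsti1, at 1.07 and 1.27 TPM in K97E libraries and 2.68 and 1.56 TPM in WT libraries. Isg15 and Bst2 came next after Lgals3bp. Trim34a, Ifi27, Trim14 and Ddx60 were also weak, between 14.4 and 32.8 TPM in the 4 libraries.

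**Figure D1:**
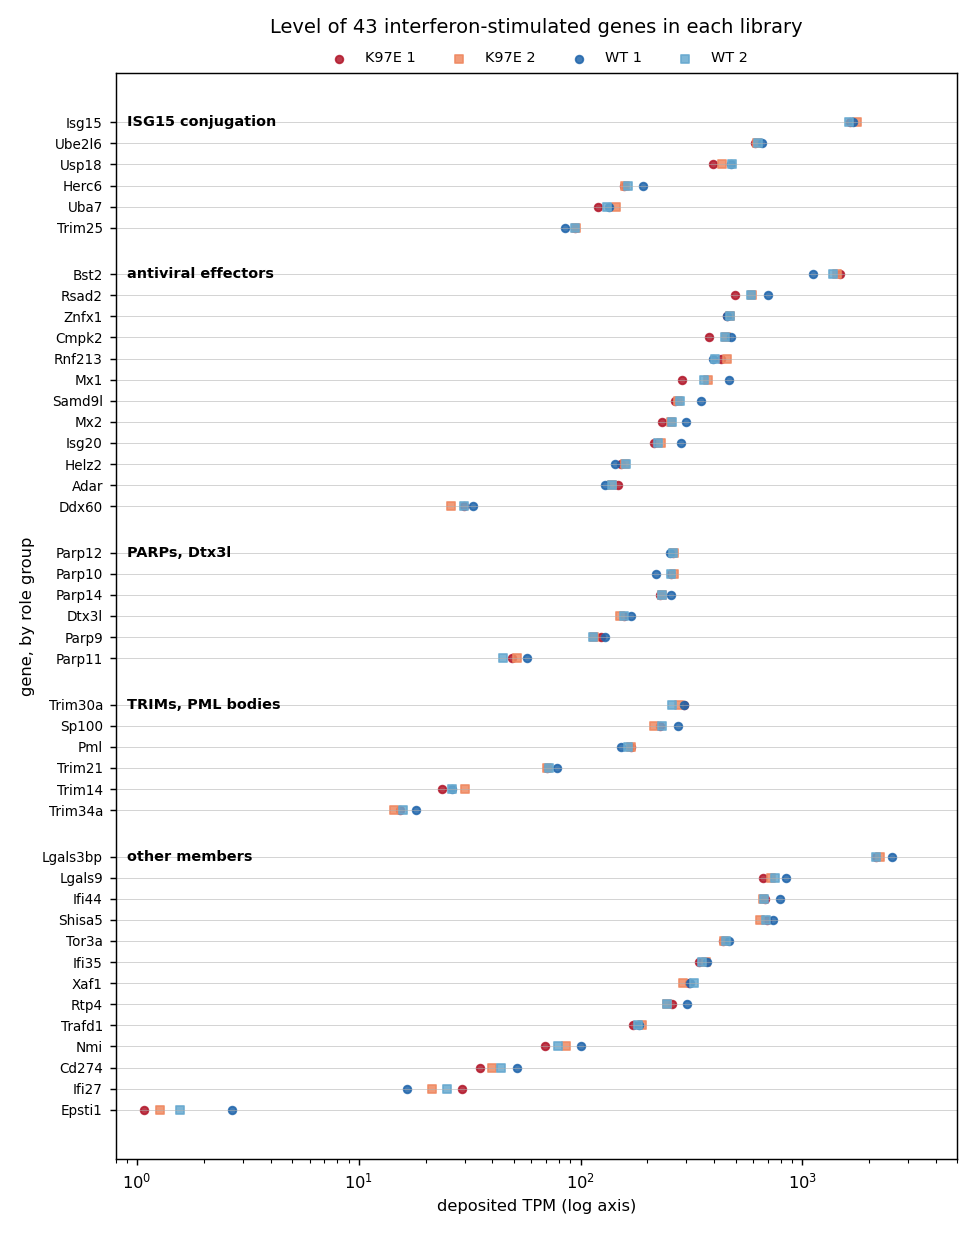
Deposited TPM of each of the 43 genes (log axis) in the K97E libraries (red, orange) and the WT libraries (dark and light blue), by role group and level. Of the 43 genes, 33 lie above 100 TPM in every library, with libraries close together, and Epsti1 is the lowest.

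The comparison of K97E with wild-type lamin A asked whether these genes changed with the mutant. No member passed the test (limma, Benjamini-Hochberg over 16304 genes), with adjusted p from 0.965 to 0.999, against 0.00613% of all tested genes called, which is 1 gene. At an unadjusted p under 0.05 there were 2 members, Cd274 and Epsti1, both lower by value, where 3.68% of all tested genes reached that level, 2.54% lower and 1.14% higher. By value, 36 of 43 members had a negative log2 difference (83.7%), where 50.5% of all tested genes did. The median log2 difference of the members was -0.14, on the scale of log2(TPM + 0.5) after scaling between libraries, and that of all tested genes was -0.0017. The 7 tested myoblast markers had a median of the same size, -0.145, with 5 negative, and 4 with both K97E libraries lower. Chrna1, a subunit of the acetylcholine receptor, differed by -0.37 and Vcam1, an adhesion molecule, by -0.44, both at an unadjusted p under 0.05 and neither past the test. The summed level of the myoblast markers was 730 and 746 TPM in K97E libraries, against 732 and 872 TPM in WT libraries. Of 5 listed endothelial markers 2 were tested, Cdh5 (17.1 to 20.3 TPM) and Flt1 (3.13 to 4.13 TPM), with a median log2 difference of -0.22. Pecam1 stayed at or under 0.16 TPM. The sum of the endothelial markers was 20.9 and 22.1 TPM in K97E libraries, against 24.9 and 22.1 TPM in WT libraries. The part of such cell markers in the members' values was not tested. The median shrank to -0.08 without WT 1 and to -0.09 without K97E 1, and was -0.20 without WT 2 and -0.18 without K97E 2. With TPM as deposited it was -0.08, with 30 of 43 members negative, where the median of all tested genes was 0.05, and with quantile normalization it was -0.09.

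Groups did not overlap, with both K97E libraries lower, for 21 of 43 members in the scaled values, where 16.8% of all tested genes behaved so, and with both higher for 1 member, Bst2, where 16.3% of all did. In TPM as deposited these counts were 15 lower and 7 higher, where 9.72% and 25.9% of all tested genes were so. The standard error of a member's log2 difference was between 0.09 and 0.26. For 41 of the 43 members the 95% interval of the difference included 0. Leaving out a library moved the difference by over 1.5 times for 30 members without WT 1, 26 without K97E 1, 19 without WT 2 and 19 without K97E 2.

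**Figure D2:**
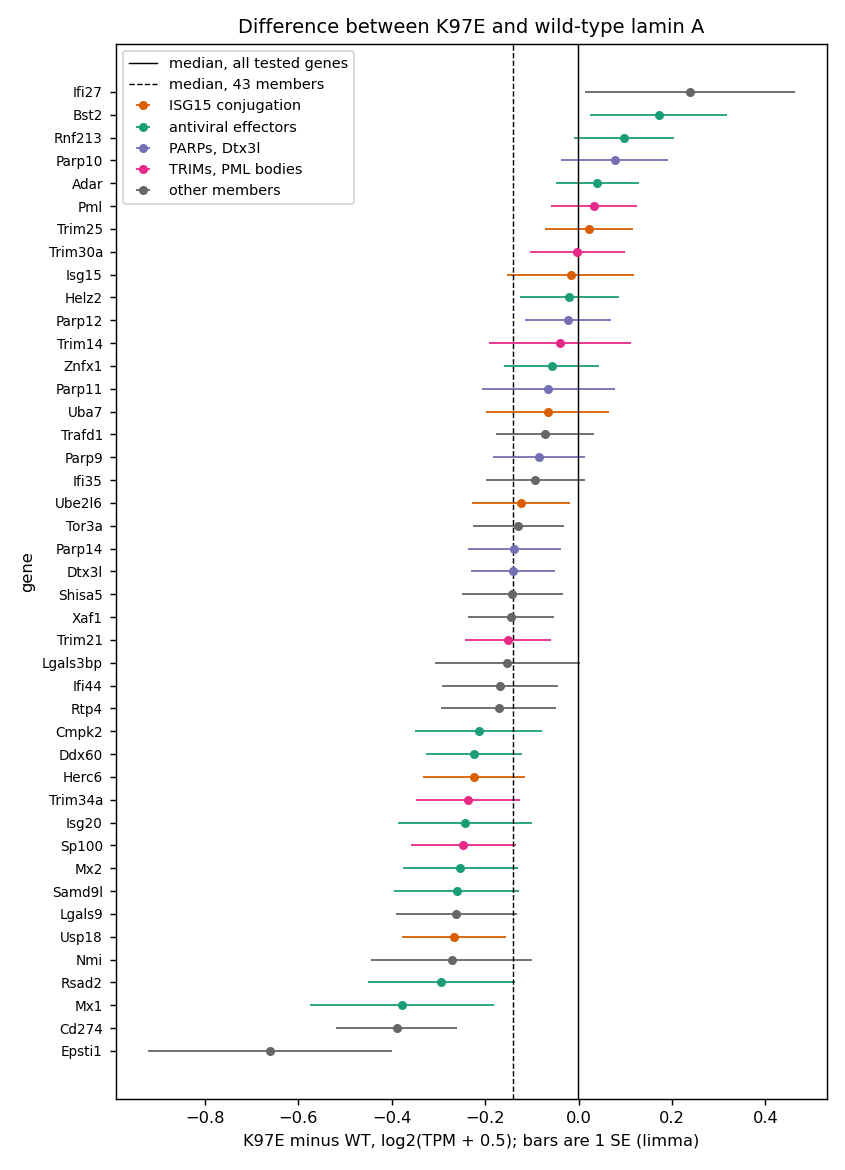
Difference of each gene, K97E minus WT, on the log2(TPM + 0.5) scale with 1 SE from limma, coloured by role group. Of 43 genes 36 lie left of 0, the dashed line marks their median of -0.14, and the solid line the median of all tested genes, near 0.

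Of the 6 ISG15 conjugation genes, 5 had a negative difference and none passed the test, and the median log2 difference was -0.10. Isg15, the ubiquitin-like modifier itself, stood at 1642 and 1765 TPM in K97E libraries, against 1689 and 1620 TPM in WT libraries. The groups overlapped, and K97E minus WT came to -0.02 on the log2 scale (SE 0.14, limma adjusted p = 0.995), with a 95% interval from -0.36 to 0.32. Its sign turned with TPM as deposited (0.04). The activating enzyme Uba7 stood at 120 and 145 TPM in K97E libraries and 134 and 131 TPM in WT libraries, with the K97E libraries on either side of the WT ones. The conjugating enzyme Ube2l6 was lower by value in both K97E libraries, at 613 and 622 TPM, against 660 and 632 TPM in WT libraries.

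Herc6, the main ligase for ISG15 in mouse, stood at 157 and 159 TPM in K97E libraries and 191 and 164 TPM in WT libraries, a log2 difference of -0.22 (SE 0.11) that was -0.12 without WT 1 and -0.34 without WT 2. Trim25, a ligase for ubiquitin and ISG15, stood at 94.7 and 94.8 TPM in K97E libraries, against 85.4 and 94.1 TPM in WT libraries. Usp18 takes ISG15 off its targets and also restrains the type I interferon receptor. It had the lowest unadjusted p of the 6 genes, with 396 and 433 TPM in K97E libraries and 477 and 479 TPM in WT libraries, which did not overlap. On the log2 scale this was -0.27 (SE 0.11, limma adjusted p = 0.965), and -0.17 without K97E 1.

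Among the 12 antiviral effectors, 9 were negative, none passed the test, and the median log2 difference was -0.22. The Mx proteins are dynamin-like GTPases that block virus replication. Mx1 stood at 288 and 375 TPM in K97E libraries, against 466 and 361 TPM in WT libraries, a difference of -0.38 (SE 0.20), and K97E 2 lay above WT 2. Without K97E 1 it was -0.155, without WT 1 -0.20, and without K97E 2 -0.60. Its neighbour Mx2, 72400 bases away on chromosome 16 and on the other strand, stood at 232 and 255 TPM in K97E libraries and 299 and 259 TPM in WT libraries. Rsad2 encodes viperin, which makes a chain-terminating analogue of CTP, and Cmpk2, a mitochondrial nucleotide kinase, lies next to it on chromosome 12 with the opposite strand, 12751 bases away. Rsad2 stood at 496 and 594 TPM in K97E libraries and 697 and 586 TPM in WT libraries. Cmpk2 stood at 380 and 451 TPM in K97E libraries and 477 and 446 TPM in WT libraries. For both genes K97E 1 was the lowest and WT 1 the highest library, and the other libraries lay close together.

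Samd9l, an inhibitor of translation, stood at 267 and 275 TPM in K97E libraries, against 348 and 279 TPM in WT libraries, so WT 1 alone stood high. WT 1 also stood alone for Isg20, an exonuclease of single-stranded RNA, with 214 and 230 TPM in K97E libraries and 283 and 224 TPM in WT libraries. Ddx60, a helicase linked to RNA sensing, had a low level, 29.8 and 26.0 TPM in K97E libraries and 32.8 and 29.9 TPM in WT libraries. After scaling, its groups did not overlap, and K97E minus WT was -0.22 (SE 0.10, limma adjusted p = 0.965).

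Bst2 ran the other way. It encodes tetherin, a membrane protein that holds budding viruses at the cell surface, and stood at 1477 and 1426 TPM in K97E libraries, against 1120 and 1369 TPM in WT libraries. The groups did not overlap, and K97E minus WT was 0.17 (SE 0.15, limma adjusted p = 0.965), with WT 1 the lowest library. Without WT 1 the difference was 0.02, and without WT 2 it was 0.32. The giant ubiquitin ligase Rnf213 stood at 428 and 459 TPM in K97E libraries and 393 and 402 TPM in WT libraries, a difference of 0.10 (SE 0.11). Adar, which edits adenosine to inosine in double-stranded RNA, stood at 147 and 139 TPM in K97E libraries and 129 and 139 TPM in WT libraries. For the helicases Znfx1 and Helz2, K97E minus WT was -0.06 and -0.02, with overlapping groups. Znfx1 stood at 456 and 471 TPM in K97E libraries and 456 and 471 TPM in WT libraries, and Helz2 turned sign with TPM as deposited (0.04).

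The 5 PARP genes belong to the ADP-ribosyltransferase family, and Dtx3l is the ubiquitin ligase that Parp9 binds. The median log2 difference of these 6 genes was -0.07, with 5 of 6 negative and none past the test. Parp14 stood at 228 and 233 TPM in K97E libraries and 254 and 233 TPM in WT libraries. Dtx3l stood at 156 and 151 TPM in K97E libraries, against 169 and 156 TPM in WT libraries, and Parp9 at 123 and 115 TPM in K97E libraries, against 129 and 114 TPM in WT libraries. Dtx3l and Parp9 start head to head on chromosome 16, and 458 exonic bases are shared between them on opposite strands, so reads there can be credited to either. Parp12, at 262 and 264 TPM in K97E libraries and 252 and 262 TPM in WT libraries, had a log2 difference of -0.02 (SE 0.09), which turned to 0.04 with TPM as deposited. Parp10, at 255 and 263 TPM in K97E libraries and 218 and 255 TPM in WT libraries, was positive at 0.08 (SE 0.11). Parp11 was the weakest, at 49.2 and 51.6 TPM in K97E libraries and 57.5 and 44.5 TPM in WT libraries, with the WT libraries on either side of the K97E ones.

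For 5 of the 6 TRIM and PML body genes the difference was negative, none passed the test, and the median was -0.10. Sp100, a constituent of these bodies, stood at 228 and 215 TPM in K97E libraries and 274 and 232 TPM in WT libraries, a difference of -0.25 (SE 0.11, limma adjusted p = 0.965) with groups that did not overlap. Without WT 1 the Sp100 difference was -0.13. Pml, which organises the same bodies, stood at 168 and 169 TPM in K97E libraries and 153 and 164 TPM in WT libraries, a difference of 0.03 (SE 0.09). Whether Sp100 and Pml differ from each other was not tested. Trim21, a cytosolic antibody receptor, stood at 70.3 and 70.7 TPM in K97E libraries, against 78.5 and 72.2 TPM in WT libraries. Trim30a stood at 293 and 278 TPM in K97E libraries and 291 and 259 TPM in WT libraries, with a difference of -0.0028 (SE 0.10) that turned to 0.06 with TPM as deposited. Trim34a stood at 15.3 and 14.4 TPM in K97E libraries and 18.1 and 15.8 TPM in WT libraries. Trim30a and Trim34a belong to a cluster of similar copies on chromosome 7, among which reads can be shared. Trim14, an adaptor of RNA sensing, varied most of these 6 within K97E, at 23.6 and 30.2 TPM in K97E libraries, against 26.4 and 26.3 TPM in WT libraries, and 31.3% of its exonic bases overlap the antisense gene Nans.

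Of the 13 other members 12 were negative, with a median log2 difference of -0.15 and none past the test. Cd274 encodes PD-L1, the ligand of an inhibitory receptor of T cells. It had the lowest unadjusted p of all members, at 35.4 and 39.8 TPM in K97E libraries, against 51.4 and 43.6 TPM in WT libraries. Both K97E libraries lay under both WT libraries, and K97E minus WT was -0.39 (SE 0.13, limma adjusted p = 0.965; 95% interval -0.71 to -0.07). Epsti1 differed most, by -0.66 (SE 0.26, limma adjusted p = 0.965), at the lowest level of the set, and by -0.35 without WT 1. Lgals9, a secreted galectin, stood at 663 and 722 TPM in K97E libraries and 847 and 750 TPM in WT libraries, a difference of -0.26 (SE 0.13) that was -0.17 without K97E 1.

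Nmi and Ifi35 encode partner proteins that bind each other. Nmi stood at 69.2 and 85.7 TPM in K97E libraries and 101 and 79.3 TPM in WT libraries, with K97E 2 above WT 2. Ifi35 stood at 342 and 368 TPM in K97E libraries and 373 and 354 TPM in WT libraries, an overlap as well. Ifi44 stood at 681 and 666 TPM in K97E libraries, against 788 and 671 TPM in WT libraries. Shisa5, a membrane protein of the endoplasmic reticulum linked to cell death, stood at 691 and 647 TPM in K97E libraries and 736 and 682 TPM in WT libraries. Tor3a, a torsin-type ATPase of the same compartment, stood at 437 and 441 TPM in K97E libraries and 469 and 453 TPM in WT libraries, and Xaf1, a partner of a caspase inhibitor, at 309 and 291 TPM in K97E libraries and 311 and 326 TPM in WT libraries. Rtp4, a chaperone of surface receptors, had a log2 difference of -0.17 and Trafd1, a feedback inhibitor of innate signalling, of -0.07.

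Ifi27 was the only one of these 13 with a positive difference, 0.24 (SE 0.22). It stood at 29.2 and 21.4 TPM in K97E libraries, against 16.5 and 24.9 TPM in WT libraries. The groups overlapped, and without WT 1 the difference turned to -0.05.

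Members also differed between libraries of the same group. WT 1 was the highest library for 27 of 43 members (33.0% of all tested genes) and K97E 1 the lowest for 26 (23.3% of all). K97E 2 was the highest for 8 (21.8% of all) and the lowest for 7 (22.4% of all), and WT 2 the highest for 7 (21.6% of all) and the lowest for 2 (21.1% of all). The median log2 difference over members was -0.25 for K97E 1 minus WT 1, -0.13 for K97E 1 minus WT 2 and -0.17 for K97E 2 minus WT 1. For K97E 2 minus WT 2 it was -0.02. Within groups it was -0.11 for K97E 1 minus K97E 2 and 0.12 for WT 1 minus WT 2. Both medians within a group were thus smaller in size than those of 3 pairs between groups. They were larger in size than that of K97E 2 and WT 2. In that pair, 28 of 43 members were lower in K97E 2, against 8365 of all 16304 tested genes. For Mx1 the log2 difference was -0.79 for K97E 1 minus WT 1, 0.03 for K97E 2 minus WT 2, -0.45 for K97E 1 minus K97E 2 and 0.37 for WT 1 minus WT 2. WT 1 was the lowest library for 8 members (33.2% of all tested genes), among them Bst2 and Ifi27, and K97E 1 the highest for 1 (23.6% of all).

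**Figure D3:**
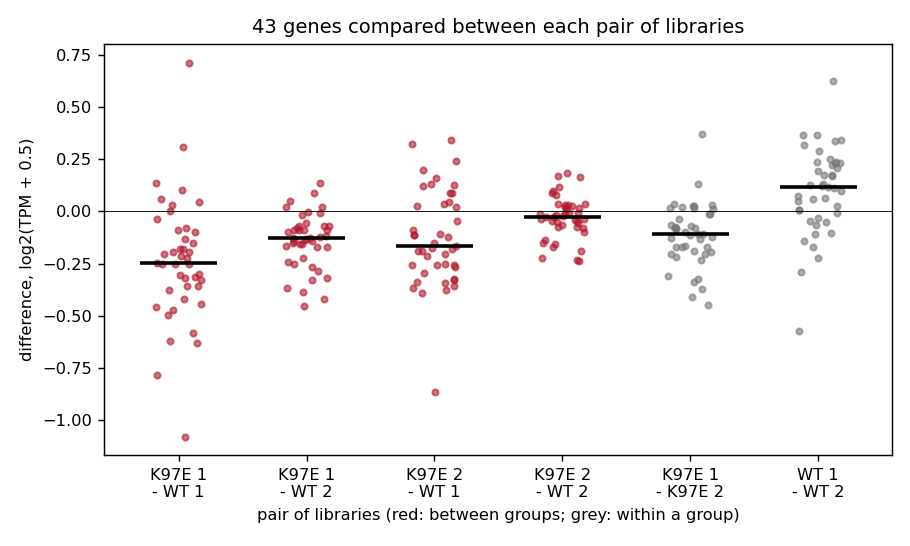
Differences of the 43 genes between each pair of libraries on the log2(TPM + 0.5) scale, with a point per gene and a bar at the median. Pairs between groups are red and pairs within a group grey, and the medians of K97E 1 minus K97E 2 (-0.11) and WT 1 minus WT 2 (0.12) are larger in size than that of K97E 2 minus WT 2 (-0.02).

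**Figure D4:**
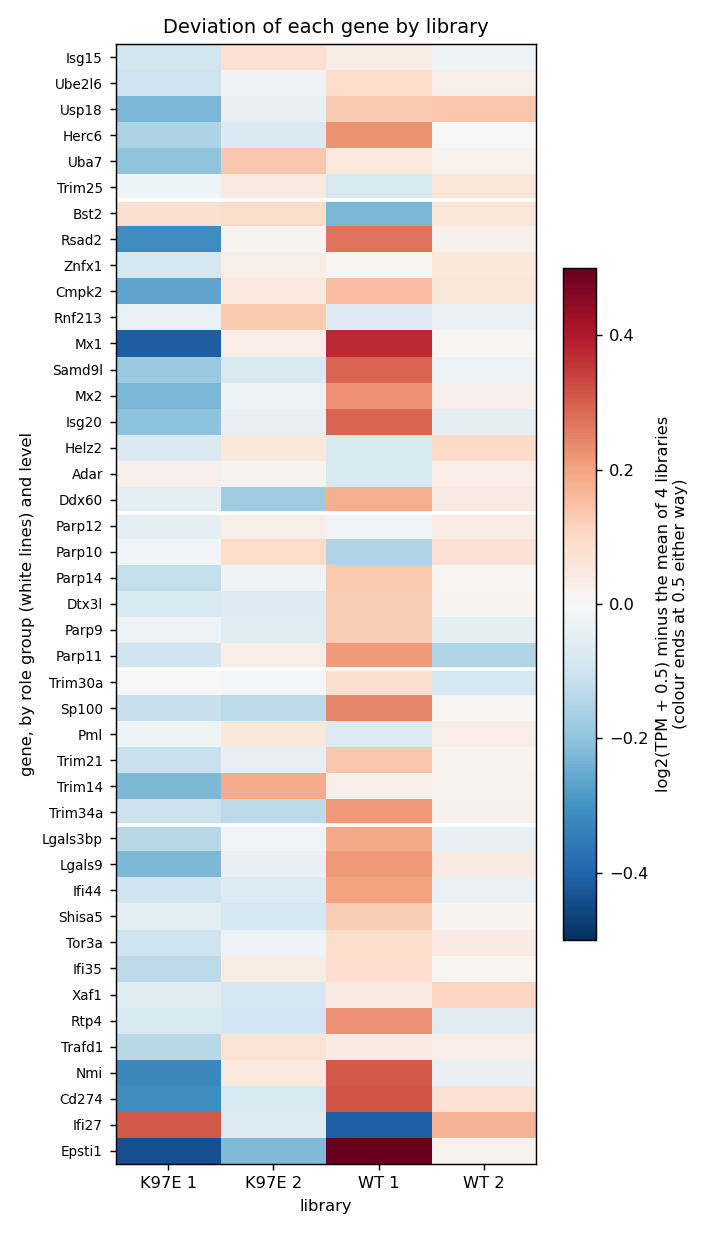
Deviation of each gene from its mean over the 4 libraries on the log2(TPM + 0.5) scale, red above and blue below, with K97E libraries left of WT libraries. WT 1 is the highest library for 27 genes and K97E 1 the lowest for 26, while K97E 2 and WT 2 stay near the mean.

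Upstream genes were read beside the members. Of 18 interferon ligand genes in the files, 3 passed the filter on low values. Ifnb1, the interferon made first by many non-immune cells, stood at 4.70 and 12.6 TPM in K97E libraries, against 19.0 and 8.89 TPM in WT libraries, a value of -0.77 for K97E minus WT (SE 0.53, limma adjusted p = 0.965) with overlapping groups. Ifna4 stood at 1.15 and 2.42 TPM in K97E libraries and 4.31 and 2.37 TPM in WT libraries. For both Ifnb1 and Ifna4 WT 1 was the highest and K97E 1 the lowest library. Of all tested genes, WT 1 was the highest library for 33.0% and K97E 1 the lowest for 23.3%. The share of genes with both was not computed. The remaining tested ligand, Ifnz, stood at 1.055 and 1.304 TPM in K97E libraries and 1.107 and 1.175 TPM in WT libraries. Its log2 difference was -0.0096, and K97E 2 was its highest library. With 4 libraries no correlation was computed.

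Of 16 tested receptor and ISGF3 pathway genes none passed the test in either direction, and 14 were negative with a median log2 difference of -0.11. The receptor subunit Ifnar1 stood at 41.4 and 38.8 TPM in K97E libraries and 42.7 and 37.8 TPM in WT libraries, and Ifnar2 at 65.6 and 61.9 TPM in K97E libraries and 84.8 and 63.2 TPM in WT libraries. Stat2, another part of ISGF3, stood at 351 and 336 TPM in K97E libraries, against 381 and 348 TPM in WT libraries. Irf9 differed by 0.0051 (SE 0.09), at 95.3 and 89.3 TPM in K97E libraries and 91.4 and 85.2 TPM in WT libraries. Irf7, a factor that drives interferon genes, stood at 758 and 710 TPM in K97E libraries and 633 and 694 TPM in WT libraries, with both K97E libraries above.

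The related families, taken from lists and not tested as sets, gave medians of -0.17 for 10 OAS, RNase L and PKR genes, -0.20 for 6 Ifit genes and -0.47 for 11 guanylate-binding genes, against -0.14 for the members. After scaling, every tested gene of these lists was negative by value and none passed the test. At an unadjusted p under 0.05 (limma) were 7 of the 11 guanylate-binding genes, 1 of the Ifit genes and 0 of the OAS list. Of all tested genes 3.68% reached that level, 2.54% of them lower and 1.14% higher as shares of all tested genes. In TPM as deposited Oas3 stood at 159 and 150 in K97E libraries, against 153 and 146 in WT libraries, and Ifit1bl2 at 10.2 and 9.4 in K97E libraries, against 9.3 and 10.1 in WT libraries. Their median differences between K97E 2 and WT 2 were 0.0019, -0.07 and -0.15, against -0.02 for the members.

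At the level of transcripts, Rsad2 stood out from the other members. It was singled out after its values were seen. The gene (GRCm39 chromosome 12, 26492745 to 26506451, minus strand) has a protein-coding transcript of 6 exons, ENSMUST00000020970, and a transcript of 7 exons, ENSMUST00000137792, that GENCODE classes as a target of nonsense-mediated decay. The authors' TPM credited 60.4% and 63.3% of the gene to the 7-exon transcript in K97E libraries, against 2.79% and 2.5% in WT libraries. In TPM the 7-exon transcript stood at 299 and 376 in K97E libraries and 19.4 and 14.7 in WT libraries, and the 6-exon transcript at 192 and 212 in K97E libraries and 670 and 566 in WT libraries. The shares of the groups were far apart and those of replicates close, while the log2 difference of the gene total was -0.29 (SE 0.16).

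The exon that sets the 7-exon transcript apart was measured too. Exon 3, of 435 bases (26501972 to 26502406), had, not scaled to depth, a coverage per base of 131 and 161 in K97E libraries, against 209 and 163 in WT libraries. Relative to exon 2, which both transcripts share, this was 3.52% and 3.76% in K97E libraries and 5.66% and 4.29% in WT libraries. The shared exon 2 itself was credited to the 7-exon transcript at a coverage of 2356 and 2834 in K97E libraries and 85.3 and 81.8 in WT libraries. Over both transcripts, exon 2 had a coverage of 3732 and 4288 in K97E libraries and 3695 and 3796 in WT libraries. So on shared exons the coverage credited to the 7-exon transcript was far higher in K97E libraries. Exon 3 relative to exon 2 was lower by value in K97E libraries, with groups that did not overlap.

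**Figure D5:**
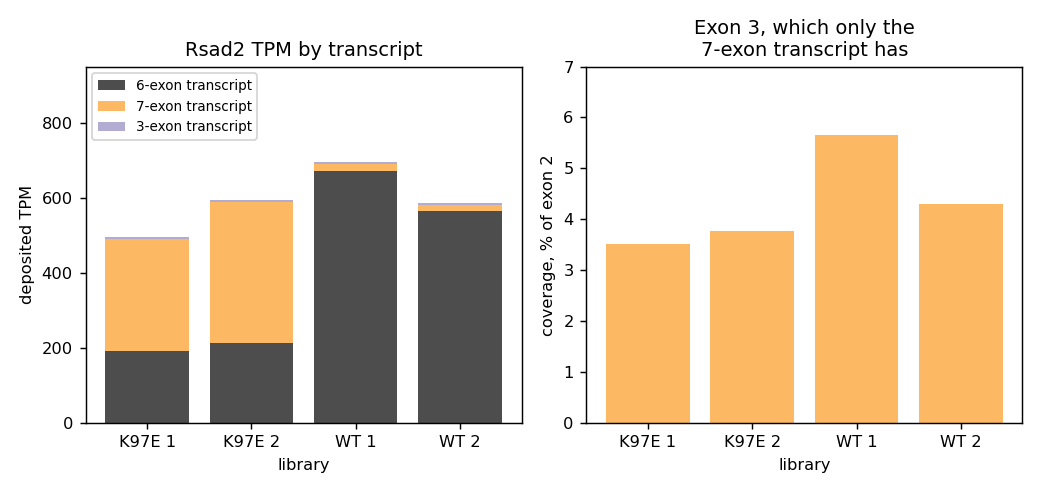
Left, deposited TPM of Rsad2 stacked by transcript in each library: the 7-exon transcript holds 60.4% and 63.3% in K97E and under 3% in WT. Right, coverage of exon 3, which the 7-exon transcript alone has, as a percentage of exon 2: it is 3.52% and 3.76% in K97E and 5.66% and 4.29% in WT.

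A gap of at least 50 percentage points between all K97E and all WT libraries in a transcript's share was found in 0.283% of 11660 tested genes with more than 1 transcript, 33 genes, and in 1 of the 41 members so annotated. Within K97E libraries alone 2.56% of genes had a difference that large, and within WT libraries 2.89%. Helz2 was the member that did so in both groups, with 38.6% and 93.9% of its TPM in the 19-exon transcript in K97E libraries and 94.2% and 38.1% in WT libraries. Adar gave its transcript ENSMUST00000107405 74.0% and 56.5% in K97E libraries and 34.2% and 56.5% in WT libraries. A transcript's share also differed by 44.6 percentage points between the WT libraries for Mx2 and 29.8 for Lgals9, and by 29.2 between the K97E libraries for Uba7.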

How the data were processed

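Per the labels' protocols, RNA went through a strand-keeping mRNA kit and was read as pairs of 100 bases. Per the submitters' processing notes the build was GRCm39 and the tools were StringTie 2.1.7, SAMtools, HISAT2, DESeq2 and FastQC, with no role stated for DESeq2. Per the file headers, StringTie 2.1.7 estimated annotated transcripts only, from Ensembl release 104, with no strand option, so reads from overlapping genes on opposite strands cannot be told apart. The authors deposited coverage, FPKM and TPM for 142434 transcripts per library, and TPM sums to 1000000. There are no read counts, and the estimates from coverage give no counting interval.

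TPM was summed per gene_id and divided by median-of-ratios factors (0.98 to 1.04, over genes above 1 TPM in all libraries), with a pseudocount of 0.5 added before log2. Genes with a mean of at least 0.5 TPM were compared, K97E minus WT, with limma 3.58.1 in R 4.3.3 (eBayes with trend, 5.54 total degrees of freedom, two-sided, Benjamini-Hochberg over all genes, threshold 0.05). The log2 scale with a pseudocount understates differences of weak genes. An exact permutation of 2 against 2 cannot go below 0.333. The test was run on simulated data for 16304 genes. It called 53 of the 100 with a 2-fold change, 88 of the 100 with a 4-fold change, and 8 without any. The simulated noise was independent between libraries, with variances drawn from limma's own prior and no shift common to a library. Changes under 2-fold were not simulated, so these counts do not give the power of the comparison for the members. Printed TPM values are as deposited. Python 3.11.15, pandas 2.3.3 and matplotlib 3.10.9 were used.

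The members, role groups and lists were chosen with earlier results of these data known, so no set test was made. The rule for naming took all ISG15 conjugation genes, the 4 most abundant of each other role group, and the 8 members with the smallest unadjusted p and the 8 with the largest differences. Isg20, Ifi27, Ifi35, Parp9, Parp11, Xaf1, Rtp4, Trim14, Tor3a, Helz2, Rnf213, Adar and Trafd1 fall outside it and were named after their values were seen. GENCODE and RefSeq tables are of GRCm38 and were matched by ID or symbol only.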

Additional observations from a re-analysis of the deposited data

How the results depend on the processing

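No member was called under any of 13 alternatives (lowest adjusted p 0.28). The members with a negative difference numbered 29 to 38 with a library left out, 30 with deposited TPM left unscaled and 32 with either quantile normalization or FPKM. The median difference kept its sign, from -0.20 without WT 2 to -0.08 without WT 1. Member counts at an unadjusted p under 0.05 are not given for the alternatives, since the share of all tested genes was not computed there. Replicate numbers are shared by the groups, and the main test did not take same-numbered libraries as pairs. Deviations of same-numbered libraries correlated at -0.137 over genes. A single library can set that value, so it cannot show whether the libraries were prepared as pairs. With the replicate block 0 genes were called, and with the crossed pairing, chosen after seeing the data, 30 genes, of which 0 were members. Among all tested genes the count of 1 became 0 with no filter, 2 with TPM as deposited, 2 with eBayes without trend, and 0 to 18 with a library left out (18 without WT 1, 6 without WT 2), where the lone library of a group is assumed to vary like the other group. The cause was not tested.

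Of the members 29 kept their sign throughout. With TPM as deposited, quantile normalization and FPKM in turn, Isg15 turned to 0.0411, 0.0157 and 0.0117, Parp12 to 0.0353, 0.0162 and 0.0059, Trim30a to 0.0551, 0.0681 and 0.0257, and Helz2 to 0.0383, 0.0219 and 0.00893. With TPM as deposited Trim14 turned to 0.0166 and Znfx1 to 0.000129. With a library left out, the differences that changed sign ranged from -0.10 to 0.067 for Isg15, -0.052 to 0.53 for Ifi27, -0.037 to 0.19 for Parp10, -0.25 to 0.12 for Parp11, -0.064 to 0.016 for Parp12, -0.25 to 0.17 for Trim14, -0.051 to 0.091 for Trim25, -0.087 to 0.078 for Trim30a, -0.24 to 0.10 for Uba7, -0.11 to 0.066 for Helz2, -0.021 to 0.083 for Pml, -0.018 to 0.094 for Adar and -0.18 to 0.031 for Trafd1.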
